A study of Mus musculus with 4 samples.

Results

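The variable (V) genes of the T cell receptor were read across 4 RNA-seq libraries of mouse regulatory T cells, a CD4+ lineage that holds immune responses in check. Members were all genes of the deposited tables that the GENCODE annotation, mouse release 21, types as functional T cell receptor V genes and names Trav (alpha chain) or Trbv (beta chain). They numbered 130 of 50600 genes, 108 Trav and 22 Trbv. Each member's fragments were expressed as a share of all fragments counted over the V genes of its chain in the same library.

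A T cell builds its receptor by cutting and joining DNA. An alpha chain gene is made from a V and a joining (J) segment, and a beta chain gene from a V, a diversity (D) and a J segment, each spliced to a constant (C) gene. Any one T cell carries few rearranged V genes, so the V gene shares of a population describe its receptor repertoire, weighted by how much receptor RNA each cell holds. In bulk RNA, fewer cells with a V gene and less of its RNA per cell cannot be told apart.

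The 4 libraries form 1 group, biological replicates 1 to 4 of C57BL/6NJ primary regulatory T cells, with no treated or control arm. A CD4+ T cell differentiation protocol is linked in the labels, and the headers of the files name outputs as activated, 24h. All 4 libraries share 1 donor identifier, age and sex are not recorded, and no genetic change or sorting gate is described. Nothing in the labels says whether the libraries came from separate animals or cultures. Every spread and p-value below therefore measures only the difference between these libraries, an unknown part of which may be technical.

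Libraries held 38590127 to 93035969 fragments assigned to genes, with replicate 1 the shallowest and replicate 4 the deepest. Replicate 1 had 2.04% of its fragments on Gm42418, a gene that overlaps ribosomal RNA sequence, against 0.0704% to 0.175% in the other libraries. Xist, the RNA of the inactive X chromosome, was at 100.4 and 88.7 TPM in replicates 1 and 2 and at 0.603 to 0.716 TPM in replicates 3 and 4, while the Y-linked Ddx3y showed the opposite order (0.101 to 0.159 against 40.6 to 46.1 TPM). The libraries therefore do not share 1 pattern of sex-linked RNA although they share 1 donor identifier, and are not all repeats of 1 RNA sample. The part of these differences in V gene shares was not tested. TPM here is the fragment count per kb of exon, scaled to the same total in every library.

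The labelled cell type was checked on marker lists. All 5 regulatory T cell markers (Foxp3, Il2ra, Ctla4, Ikzf2 and Tnfrsf18) were detected, with summed levels of 1349 to 1585 TPM. Most of that sum came from Il2ra, Tnfrsf18 and Ctla4, with means of 702, 401 and 245 TPM. Foxp3 averaged 109 TPM and Ikzf2 only 4.32 TPM. No other CD4 T cells were measured, so these levels alone do not tell regulatory T cells from other activated CD4 T cells. The 6 CD4 T cell markers summed to 2459 to 2779 TPM. Summed levels were 17.4 to 26.0 TPM for 2 CD8 T cell markers, 3.43 to 4.06 TPM for 3 gamma delta T cell markers, 2.96 to 4.70 TPM for 6 B cell markers, 5.43 to 8.93 TPM for 5 macrophage and monocyte markers, of which 1 was at 0 in all libraries, and 0.219 to 0.614 TPM for 3 NK cell markers, of which 1 was at 0. The 2 CD8 markers were unlike, with means of 21.8 TPM for Cd8b1 and 1.11 TPM for Cd8a. CD8 T cells carry the same V genes, and the part of such cells in the shares was not tested.

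What separates V genes in these counts is sequence, because a read that fits 2 genes equally well was not counted for either. The mouse alpha locus holds a stretch that occurs in repeated copies, whose genes carry a d or an n after the subgroup number (Trav14d, Trav14n) and resemble the genes without a letter. The coding sequences of 5 members of the Trav14 subgroup are shown first because they hold the largest share of the alpha chain and are separable. Each line gives 90 bases of coding sequence, 5′ to 3′, from the GENCODE release 21 transcripts of the mm10 assembly, all on the plus strand of chromosome 14. Capitals mark the 17 positions at which the 5 genes are not all alike.

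Trav14d-3-dv8: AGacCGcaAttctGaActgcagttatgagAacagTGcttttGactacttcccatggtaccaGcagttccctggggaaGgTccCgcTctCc

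Trav14n-3: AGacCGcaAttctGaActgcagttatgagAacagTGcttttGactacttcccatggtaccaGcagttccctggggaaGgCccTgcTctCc

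Trav14-1: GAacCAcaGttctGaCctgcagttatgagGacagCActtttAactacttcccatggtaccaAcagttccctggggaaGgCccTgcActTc

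Trav14-2: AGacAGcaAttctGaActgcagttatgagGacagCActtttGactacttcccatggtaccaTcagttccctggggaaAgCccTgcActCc

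Trav14-3: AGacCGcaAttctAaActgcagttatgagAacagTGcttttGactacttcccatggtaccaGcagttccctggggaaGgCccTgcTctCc

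Over the last 270 coding bases up to the conserved cysteine codon, these genes differed from each other at 5 (Trav14n-3 and Trav14-3) to 18 positions. The Trav12-1 copies show the other case. Capitals mark the 11 positions at which they differ in the window shown.

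Trav12-1: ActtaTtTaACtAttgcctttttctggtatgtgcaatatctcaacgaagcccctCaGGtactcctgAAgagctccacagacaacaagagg

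Trav12d-1: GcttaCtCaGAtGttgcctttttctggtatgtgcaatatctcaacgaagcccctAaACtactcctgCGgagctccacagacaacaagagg

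Trav12n-1: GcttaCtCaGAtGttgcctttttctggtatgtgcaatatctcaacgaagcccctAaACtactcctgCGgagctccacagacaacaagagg

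Trav12d-1 and Trav12n-1 differed at 0 of the 270 bases compared, and both differed from Trav12-1 at 15. Trav12-1 was counted at 35, 13, 48 and 68 fragments in replicates 1 to 4. Trav12d-1 and Trav12n-1 had 0 fragments in all 4 libraries, so the identical pair had no counted reads and the distinct copy did.

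The beta chain genes are far more distinct. The 3 Trbv13 genes, the largest Trbv subgroup, are shown with capitals at the 25 positions of the window where they are not all alike. They lie on the plus strand of chromosome 6.

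Trbv13-1: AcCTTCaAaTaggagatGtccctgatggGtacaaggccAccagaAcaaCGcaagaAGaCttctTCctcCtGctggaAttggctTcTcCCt

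Trbv13-2: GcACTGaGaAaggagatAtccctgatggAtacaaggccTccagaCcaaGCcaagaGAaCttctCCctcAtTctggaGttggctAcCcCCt

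Trbv13-3: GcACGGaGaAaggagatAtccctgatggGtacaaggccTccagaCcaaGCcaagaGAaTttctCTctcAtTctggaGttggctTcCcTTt

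Over 270 bases the Trbv13 genes differed at 23 to 41 positions. All 22 Trbv genes had every 100-base window of their transcripts to themselves, that is, no window occurred in a transcript of any other gene that does not overlap them.

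A V gene ends shortly after the codon of a conserved cysteine, at which the variable joint (CDR3) begins. The ends of 3 Trbv genes are given because the results return to them, with capitals from the cysteine codon, taken as the first in frame within the last 21 coding bases, to the last germline base.

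Trbv1: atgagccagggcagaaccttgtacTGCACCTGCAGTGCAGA

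Trbv31: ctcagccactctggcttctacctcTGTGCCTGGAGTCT

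Trbv4: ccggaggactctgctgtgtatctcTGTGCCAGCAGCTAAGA

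By this rule, the codon after the cysteine encodes alanine in 18 of 22 Trbv and 95 of 108 Trav genes. Trav23 is not among them, but a TGT followed by an alanine codon lies just upstream there in another frame. Trbv31 follows that pattern and Trbv1 does not. Trbv4 holds an in-frame TAA stop codon after the cysteine codon, the only one of the 22 Trbv genes to do so, within the stretch that trimming can remove when a V gene is joined. From the cysteine codon, that codon included, to the germline end were 14 to 21 bases (median 16.5) in Trbv and 10 to 19 bases (median 13) in Trav.

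Receptor RNA was abundant through its constant genes. Trac, the alpha constant gene, averaged 1436 ± 156 TPM (SD, n = 4), Trbc2 606 ± 58.9 TPM and Trbc1 434 ± 21.9 TPM. Trbc2 gave 55.6%, 55.2%, 55.7% and 58.5% of the Trbc fragments in replicates 1 to 4, the larger part of the counted fragments in every library. How much sequence Trbc1 and Trbc2 each have to themselves was not measured. The use of the beta clusters can therefore not be read from this split. Trdc, the delta constant gene, was at 2.84 ± 0.185 TPM.

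V gene fragments were far fewer. Trav genes together held 2836, 3385, 3261 and 5996 fragments, and Trbv genes 2922, 3891, 4238 and 7716. In CPM, the count relative to all assigned fragments of the library, this was 70.4 ± 5.43 for Trav (64.4 to 76.3) and 83.5 ± 5.67 for Trbv (75.7 to 87.7), so both chains kept to a narrow range. The fragments per kb of the Trac gene were 2.39 ± 0.377 times those of the Trav genes summed, and those of Trbc1 and Trbc2 together 1.51 ± 0.124 times those of Trbv. Where a gene has no fragment, up to 3 remain possible, a share of 0.05% to 0.106% of Trav and 0.0389% to 0.103% of Trbv. These floors and the 95% exact binomial (Clopper-Pearson) intervals below cover counting error only.

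The beta chain drew on nearly all of its V genes, and unevenly. Of 22 Trbv genes, 21 had fragments in all 4 libraries, 19 reached a mean share of at least 1% and 9 at least 5%. The effective number of genes (the exponential of the Shannon entropy, which equals the number of genes if all are used alike) was 15.0, 15.4, 15.7 and 16.1 in replicates 1 to 4. The 5 most used genes, Trbv31, Trbv1, Trbv3, Trbv2 and Trbv13-2, held 48.8 ± 4.19% of the Trbv fragments, from 44.3% in replicate 4 to 53.4% in replicate 1.

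**Figure D1:**
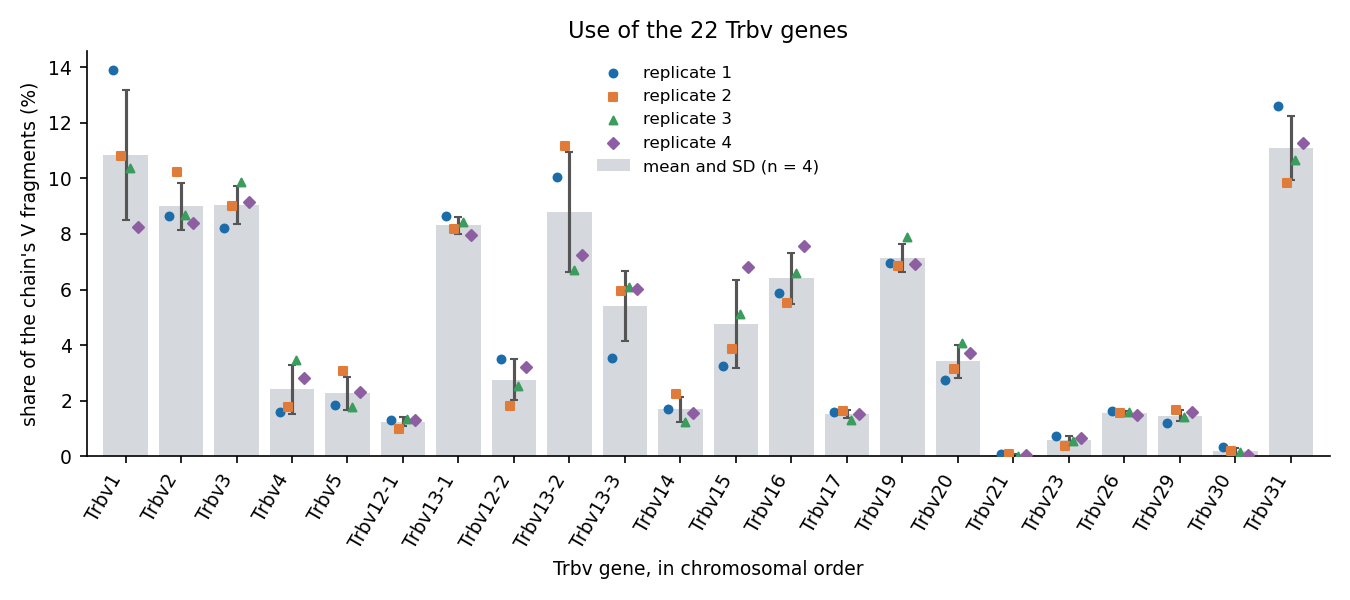
Share of Trbv fragments (%) of each of the 22 Trbv genes in chromosomal order. Bars and error bars are the mean and SD of 4 libraries and points are the libraries. Trbv31 and Trbv1, at the ends of the locus, have the highest mean shares, and Trbv21 and Trbv30 lie near 0.

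Trbv31 is the one V gene that lies beyond the constant genes and in the opposite orientation (chr6:41557691-41558452, minus strand), so that it joins by inversion. It held 12.6%, 9.84%, 10.7% and 11.3% of Trbv fragments in replicates 1 to 4, the highest mean share of the chain (11.1 ± 1.16%). The library with the highest value, replicate 1, had an interval of 11.4% to 13.9%, and the lowest, replicate 2, one of 8.93% to 10.8%.

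Trbv1 is at the other end (chr6:40891229-40891885), far upstream of the rest. Its share was 13.9%, 10.8%, 10.4% and 8.26%. Replicate 1 was highest (interval 12.7% to 15.2%) and replicate 4 lowest (7.65% to 8.89%), and these intervals do not overlap. The SD of 2.33 percentage points was 4.82 times the SD that counting alone gives at these depths.

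Trbv2 (chr6:41047340-41047995) and Trbv3 (chr6:41048290-41048828) are direct neighbours. Trbv2 held 8.66%, 10.2%, 8.68% and 8.39% and Trbv3 8.21%, 9.00%, 9.89% and 9.14%. The means of 8.99 ± 0.838% and 9.06 ± 0.686% did not differ beyond their spread. This holds for fragment shares only: per kb of exon they were 6.499 ± 0.598% and 8.06 ± 0.616%.

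The Trbv13 subgroup, the family known to immunologists as V beta 8, was the largest of the chain at 22.5 ± 1.90%. Trbv13-1 was the steadiest of the 3, with 8.66%, 8.17%, 8.45% and 7.96% (SD 0.307 percentage points, 0.717 times the counting SD). Trbv13-2 was at 10.1% and 11.2% in replicates 1 and 2 and at 6.70% and 7.26% in replicates 3 and 4. Replicates 1 and 2 were also the libraries with high Xist. This split cannot be told apart from that sex-linked difference and was not tested. Trbv13-3 was at 3.52% in replicate 1 and at 5.94%, 6.11% and 6.04% in the others. Neighbours of one sequence family thus showed different patterns over the same libraries, and those of Trbv13-2 and Trbv13-3 did not match each other.

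Trbv19, Trbv16 and Trbv15 completed the 10 most used. Trbv19 held 7.15 ± 0.506% and Trbv16 6.40 ± 0.907%. Trbv15 held 3.25%, 3.86%, 5.12% and 6.83%, with intervals of 2.64% to 3.96% in replicate 1 and 6.28% to 7.42% in replicate 4. Replicate 1 was the lowest and replicate 4 the highest library, the reverse of Trbv1.

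Per kb of exon, which allows for the different lengths of the V genes, the order of the leading Trbv genes shifted. Shares of fragments per kb were 10.7 ± 1.14% for Trbv31, 10.5 ± 2.28% for Trbv1 and 10.5 ± 2.56% for Trbv13-2, which did not differ beyond their spread, then 9.19 ± 0.371% for Trbv13-1 and 8.06 ± 0.616% for Trbv3. Trbv2, with a longer annotated transcript, came to 6.499 ± 0.598%. Exon lengths were 335 to 566 bp in Trbv.

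The other 12 Trbv genes had mean shares of 0.0547% to 3.43%, led by Trbv20. Trbv26 was at 1.58 ± 0.0593% and moved less than counting alone gives. Trbv21 was counted at 3, 3, 0 and 3 fragments and Trbv30 at 10, 7, 7 and 5, both at or near the floor. Trbv4 (2.42 ± 0.883%) and Trbv5 (2.26 ± 0.598%) were counted over only a small part of their exons: 295 of 393 and 292 of 368 exon bases are also exons of the long noncoding RNA 5830405F06Rik on the same strand, where reads count for neither gene, which leaves 98 and 76 bases free.

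The alpha chain was spread over more genes. Of 108 Trav genes, 61 had fragments in all 4 libraries, 7 in 1 to 3 libraries and 40 in none. A mean share of at least 1% was reached by 29 genes and one of at least 5% by 3. The effective number of Trav genes was 38.5, 43.4, 43.2 and 41.6 in replicates 1 to 4. The 5 most used, Trav14d-3-dv8, Trav14n-3, Trav4-4-dv10, Trav14-2 and Trav3-3, held 28.2 ± 1.53% of the Trav fragments. With members summed into their 21 subgroups, the effective number was 11.6 and the 5 largest subgroups held 61.6%.

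**Figure D2:**
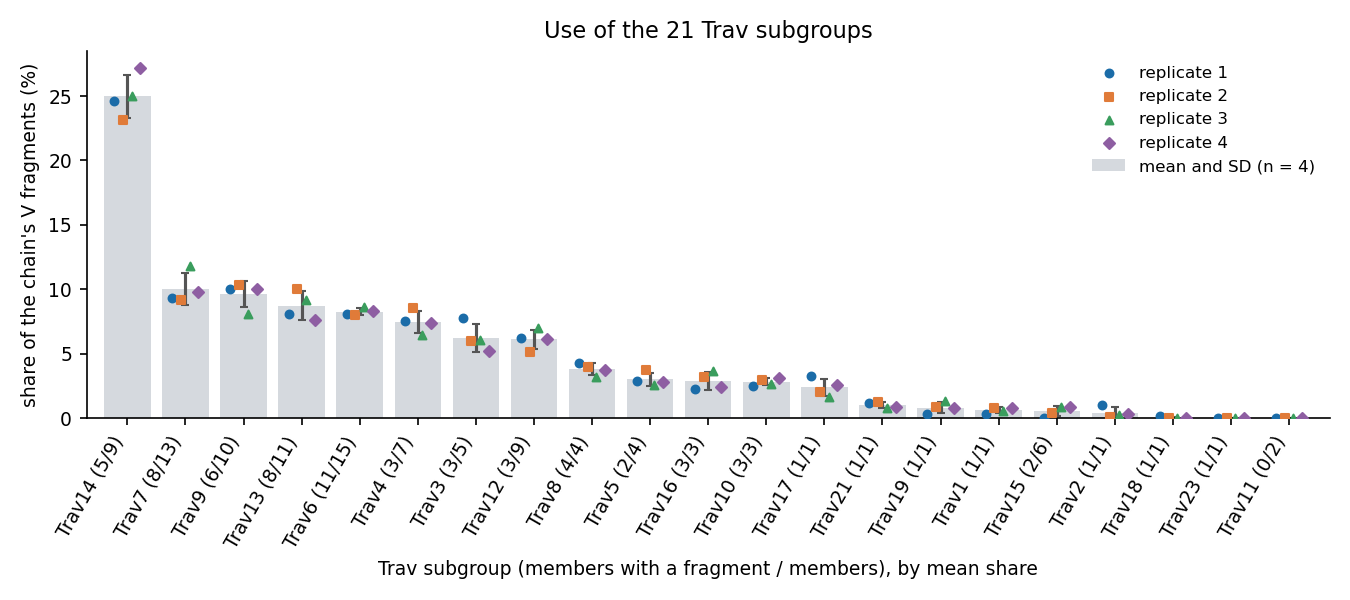
Share of Trav fragments (%) of each of the 21 Trav subgroups, ordered by mean. Bars and error bars are the mean and SD of 4 libraries, points are the libraries, and the numbers beside each name are members with a fragment and members. Trav14 lies above 20% in every library and no other subgroup reaches 12%.

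Trav14 was the leading subgroup, with 24.6%, 23.1%, 25.0% and 27.2% in replicates 1 to 4, a mean of 25.0 ± 1.66%. All of its counted fragments came from the 5 genes shown above. The other 4 of its 9 members had no fragments, but also no 100-base window of their own, so their use could not be read. Shares of other subgroups likewise leave out members without fragments, as in Trav12, where 3 of 9 members were counted. Trav7 followed with 10.03 ± 1.23% and Trav9 with 9.62 ± 1.01%. These next subgroups did not differ beyond their spread, and each lay below Trav14 in every library.

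Trav14d-3-dv8 (chr14:53078452-53079045), whose name marks a V gene that can also serve the delta chain, was the most used Trav gene, at 5.68%, 6.79%, 7.94% and 7.71%. Replicate 1 was lowest and replicate 3 highest, with intervals of 4.85% to 6.59% and 7.04% to 8.92%. Trav14n-3 (chr14:53370077-53370575) held 5.57%, 6.12%, 5.52% and 7.77%, with replicate 4 above the rest. The means of 7.03 ± 1.03% and 6.24 ± 1.05% did not differ beyond their spread.

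Within the subgroup, the mean shares of the 2 copies with a letter were above those of the copies without. In replicate 1 the intervals of both overlapped those of Trav14-2 and Trav14-3, and in replicate 3 that of Trav14n-3 overlapped that of Trav14-2. Trav14-2 held 5.36%, 4.08%, 5.15% and 5.35%, Trav14-3 averaged 4.53 ± 0.494% and Trav14-1 2.19 ± 0.536%. Trav14d-3-dv8 was above Trav14-1 in every library with intervals that do not overlap. Per kb of exon the shares were 5.99 ± 0.884% for Trav14d-3-dv8, 6.73 ± 1.15% for Trav14n-3 and 5.01 ± 0.614% for Trav14-2, so the order of the first 2 changed with length. On that scale Trav14d-3-dv8 lay below Trav14-2 in replicate 1 (4.83% against 5.37%). The share of 100-base windows found in no other gene was 98.0% for Trav14d-3-dv8, 77.1% for Trav14n-3 and 76.8% for Trav14-3, so reads of the latter genes had fewer places to count.

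Of the other leading Trav genes, Trav4-4-dv10 was steady at 5.07 ± 0.462%. Trav3-3 held 6.81%, 3.57%, 4.75% and 4.39%, with replicate 1 highest and an SD 3.81 times the counting SD. Trav13-1 was also highest in replicate 1, at 5.64%, and lowest in replicate 4, at 3.00%. Trav9-2 was at 2.64%, 3.84%, 1.90% and 3.90%, low in replicates 1 and 3 and high in replicates 2 and 4. Trav7-5 (3.03 ± 0.423%) and Trav9-4 (2.78 ± 0.206%) completed the 10.

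Members with 0 fragments were those with little or no sequence of their own. Of the 40, 35 had no 100-base window of their own, the highest share of such windows was 18.5%, and 30 had a coding part identical to that of another Trav gene. Of the 68 with fragments, none lacked such a window, the median share was 86.1%, and 19 genes were unique throughout. The ranges overlapped, since Trav6d-3 at 2.66% had 29 fragments in all while Trav13d-3 at 18.5% had 0. A 0 therefore does not show that a gene is unused. Read length was not stated, and windows were compared with annotated transcripts only.

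**Figure D3:**
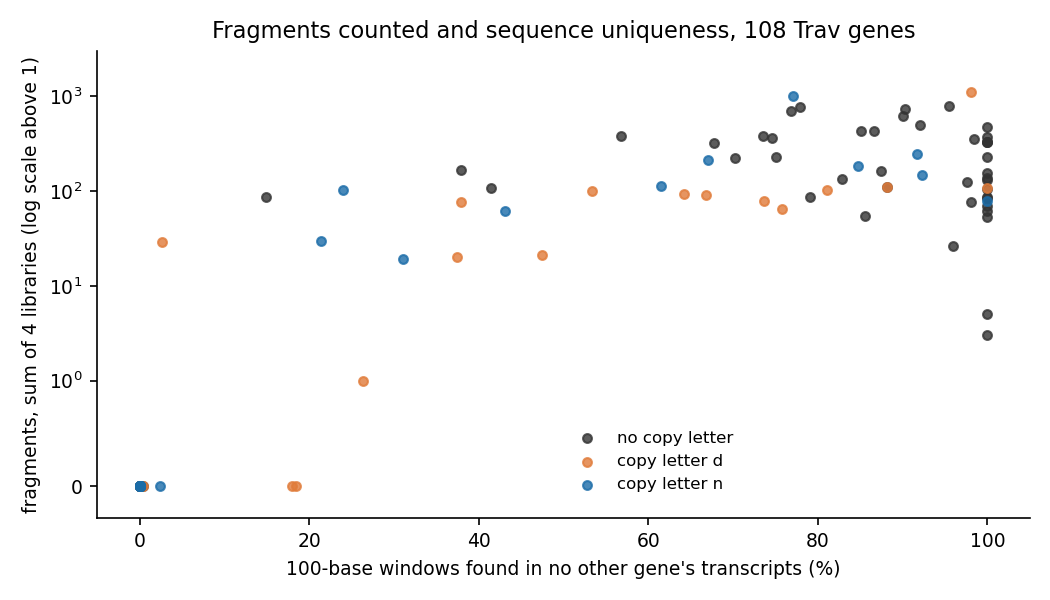
Fragments summed over 4 libraries (log scale above 1) against the share of 100-base windows found in no other gene's transcripts (%), for the 108 Trav genes, coloured by copy letter. All 40 genes at 0 lie at or below 18.5%, and genes above 50% all have fragments.

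Across all 108 genes the rank correlation of mean share and window share was 0.77, and across the 68 with fragments it was 0.16. Both are descriptions of genes that share libraries and families. Genes with a copy letter carried most of the zeros: 20 of 34 with d and 17 of 28 with n, against 3 of 46 without a letter, which were Trav7-2, Trav6-6 and Trav11. Genes without a letter held 73.5 ± 3.64% of the Trav fragments, those with d 12.9 ± 1.95% and those with n 13.6 ± 2.41%. Replicate 1 had the highest share from genes without a letter, 78.7%, and replicate 4 the lowest, 70.3%.

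Position along the locus followed the same division. The Trav genes span 1549 kb from Trav1 to Trav23 on chromosome 14. The upstream 54 genes held 20.97 ± 2.70% of the Trav fragments, from 17.0% in replicate 1 to 23.2% in replicate 3, and contained 28 of the 40 zeros. Among genes with at least 10 fragments in every library, split again, the upstream members held 36.7%, among genes at least 50% unique 37.7%, and among subgroups 44.8%, so this value depends on which genes can be counted. The rank correlation of share and start position was 0.46 over 108 genes and 0.28 over the 56 genes at least 50% unique.

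**Figure D4:**
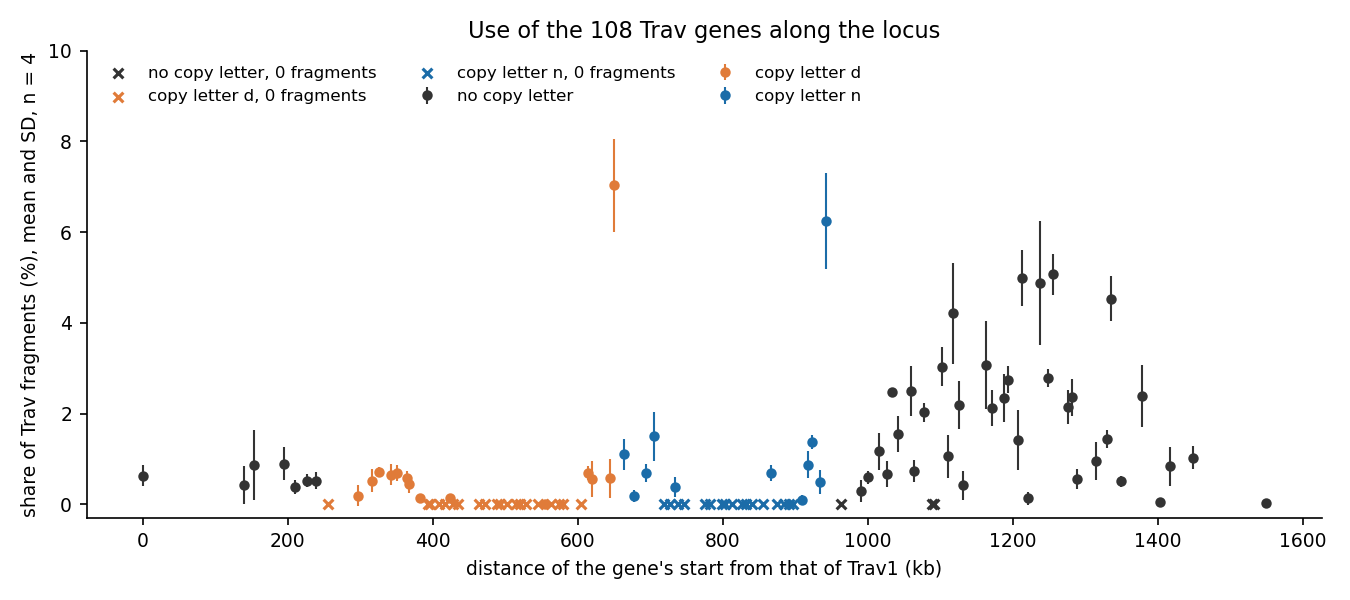
Mean share of Trav fragments (%) with the SD of 4 libraries against the distance of each gene's start from that of Trav1 (kb), for 108 Trav genes coloured by copy letter, with crosses for the 40 genes at 0 fragments. Zeros fill the stretch with copy letters d and n, in which Trav14d-3-dv8 and Trav14n-3 are the highest points.

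The beta locus showed the opposite order in fragment shares, with the larger share upstream. The size of this contrast depends on which Trav genes can be counted. The upstream Trav share was 20.97% over all members, 37.7% among genes at least 50% unique and 44.8% among subgroups. Whether V gene use along the loci differs apart from what can be counted was not tested. The Trbv genes span 666 kb, and the upstream 11 genes held 63.0%, 65.3%, 60.6% and 58.3% of Trbv fragments in replicates 1 to 4. The rank correlation of share and start was -0.44 over 22 genes and -0.65 over the 21 genes without Trbv31, a description over genes of the same 4 libraries. The last genes before the diversity segments, such as Trbv29 (1.47 ± 0.210%) and Trbv30 (0.188 ± 0.115%), were low, and Trbv31 beyond them was high.

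V genes that mark unconventional T cells were low or not countable. Trav1, the first Trav gene of the locus and the alpha V gene of MAIT cells, had 9, 28, 19 and 48 fragments, a share of 0.632 ± 0.237%. Its usual partner Traj33 was counted at 0, 5, 0 and 7. Trav11, the alpha V gene of invariant NKT cells, and its copy Trav11d had 0 fragments in all libraries. Their compared bases are identical, so these zeros do not bear on NKT cells. The partner Traj18 had 2, 3, 1 and 2 fragments, the transcription factor Zbtb16 of both lineages 0, 6, 0 and 6, and Klrb1c (NK1.1) 0, 4, 2 and 7. Trav23, the last gene of the locus, was unique in sequence and had 0, 2, 1 and 0 fragments.

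The order of use was alike between libraries. Over the 6 pairs of libraries, the rank correlation of shares was 0.93 to 0.96 across 108 Trav genes and 0.93 to 0.98 across 22 Trbv genes, which describes genes, not independent replicates. Among members with at least 20 fragments in all, the SD between libraries was over 2 times the counting SD for 28 of 64 Trav and 11 of 21 Trbv genes. This is the spread of genes at large: on the scale of library shares the same held for 41 of 85 members (48.2%) and for 3269 of 6648 genes (49.2%) with 20 to 2073 fragments, the range of the members.

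**Figure D5:**
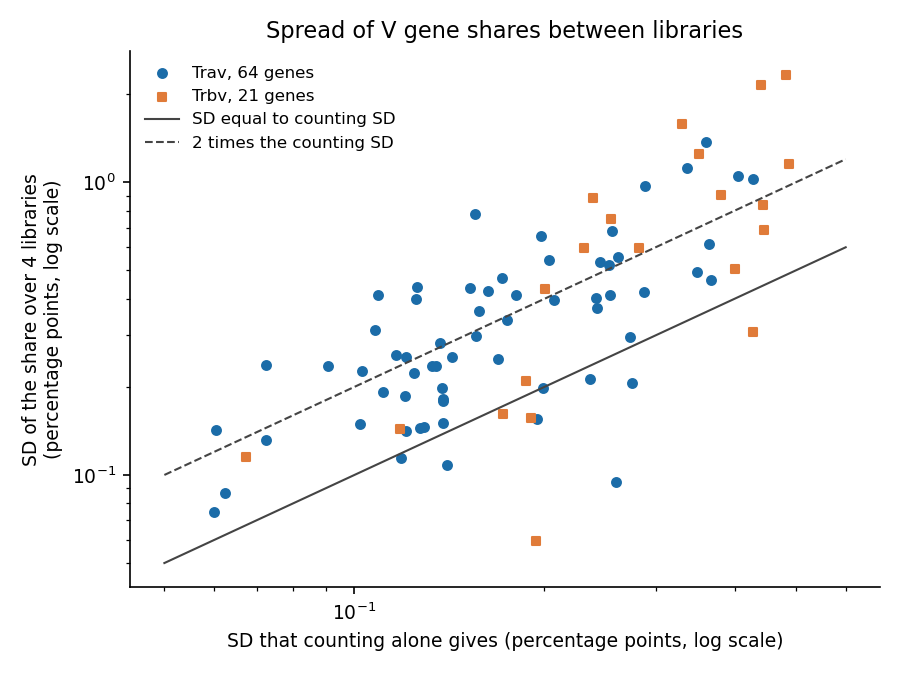
SD of each member's share over 4 libraries against the SD that counting alone gives (both in percentage points, log scales), for 64 Trav and 21 Trbv genes of at least 20 fragments. The solid line marks equality and the dashed line 2 times the counting SD, above which lie 28 Trav and 11 Trbv genes.

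Whether a member varied more than genes of like abundance was tested over all genes with edgeR's quasi-likelihood fit and Benjamini-Hochberg adjustment. After a filter on low counts, 12396 genes were tested, of which 58 (0.468%) had an adjusted p under 0.05 and 661 (5.33%) an unadjusted p under 0.05. The filter kept 48 of 108 Trav and 20 of 22 Trbv genes. None of these 68 members had an adjusted p under 0.05, and 4 had an unadjusted p under 0.05, in this fit a share near that of all genes. The same fit with DESeq2's size factors gave 0 and 4 of 68 members, beside an unadjusted 5.37% of all genes. Without the filter it gave 0 and 7 of 90 (4.98% of all genes). With each chain's own V total as library size it gave 0 and 3 of 68 (5.3%), and with a non-robust prior 0 and 1 of 68 (4.44%). Leaving out replicates 1, 2, 3 or 4 gave 0 and 5 of 73, 8 of 71, 6 of 69 and 4 of 68. All genes were then at 5.58%, 5.75%, 5.42% and 5.45%. The share of members was furthest above that of all genes without replicate 2.

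The 4 members were Trbv15 (adjusted p = 0.784 by edgeR's quasi-likelihood fit), Trbv13-3 (adjusted p = 0.907), Trbv13-2 (adjusted p = 0.912) and Trav16 (adjusted p = 0.931). Trav16 is outside the naming rule and was chosen after its values were seen, with 26, 41, 43 and 22 fragments. Trbv1, whose share had a larger SD than theirs, had an adjusted p of 0.974 in the same edgeR fit, which scales by whole libraries and not by chain. In the edgeR fit with each chain's V total as library size, Trbv15, Trbv13-2 and Trbv1 had unadjusted p of 0.0269, 0.0312 and 0.0448. Their adjusted p were 0.862, 0.873 and 0.929. Trbv13-3 and Trav16 were there at unadjusted p of 0.1 and 0.0724. Some members of low count moved further in relative terms: Trav3-1, also chosen after its values were seen, had 8, 67, 27 and 22 fragments, or 0.282% of Trav fragments in replicate 1 and 1.98% in replicate 2.

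The joining and diversity genes held far fewer fragments than the V genes, but they are much shorter. Their exon lengths were 12 bp (Trbd1) to 72 bp (Traj61), against at least 328 bp in V genes. Per kb of exon the order was different for the beta chain. There the Trbj and Trbd genes summed to 1538 to 1861 TPM, above Trbc1 and Trbc2 together, which in turn were above Trbv. Much of that sum came from Trbd1 (12 bp) and Trbd2 (14 bp), with means of 461 and 299 TPM from 366 and 274 fragments. Division by so short a length makes large values of few fragments. Fragments that reach exons of more than 1 gene, such as a J and a C gene, were also not counted. This order is therefore not one of RNA amounts. The Traj genes summed to 182 to 306 TPM. The 60 Traj genes together had 209, 160, 179 and 289 fragments and 5 had none. The 16 Trbj and Trbd genes had 751, 820, 785 and 1381, with Trbj2-7 (69, 77, 66 and 141), Trbj2-6 (93, 64, 55 and 126) and the diversity gene Trbd1 (68, 74, 80 and 144) highest. The second cluster, Trbj2, gave 57.9 ± 2.73% of Trbj fragments, beside the 56.2 ± 1.51% that Trbc2 gave of Trbc. The 12 gamma and delta V genes had 14 to 67 fragments per library, 6 of them none, and most came from Trdv1 (12, 25, 15 and 39).

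The genes of the recombination machinery ranged from undetected to abundant. Rag1, one subunit of the recombinase that cuts at V genes, had 6, 8, 10 and 40 fragments, and Rag2, the other, had 0 in all libraries, which allows at most 0.0777 to 0.0322 CPM. Dntt, which adds bases at the joint, had 20, 6, 8 and 38 fragments, and Ptcra, the partner of the beta chain before an alpha chain exists, 6, 0, 0 and 4. The general DNA repair genes of the list were present, with Xrcc5 at 133, Xrcc6 at 99.4 and Prkdc at 13.4 TPM. Of the 13 genes of the list, 9 passed the filter and 0 had an adjusted p under 0.05 in edgeR's quasi-likelihood fit, against 0.468% of all genes.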

How the data were processed

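Per the file headers, the authors counted fragments per gene with featureCounts 1.4.6-p4 over exons grouped by gene, requiring both ends of a pair to map, with strand setting 2 and GENCODE mouse release 13; the assembly is mm10 per the labels. The deposited values are raw counts. Reads mapping to several places or to exons of 2 genes were not requested. Aligner settings and read length are not given in the sources used here. Names and types came from GENCODE release 21 (50376 of 50600 IDs matched). Libraries held 38590127, 44357436, 48312918 and 93035969 fragments in replicates 1 to 4.

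From these counts, shares within each chain, their SD over 4 libraries and TPM were computed (Python 3.11.15, pandas 2.3.3). The counting SD is the SD expected from binomial sampling at the libraries' depths. Window uniqueness compared 100-base windows of annotated transcripts with those of every other gene that does not overlap, on both strands. Variation was tested in edgeR (version 4.0.16, R 4.3.3) by a quasi-likelihood fit of an intercept alone, with TMM scaling, filterByExpr and a robust prior (upper tail of the F distribution, Benjamini-Hochberg at 0.05), after a test on simulated data. Alternatives changed scaling, filter, prior, per-kb shares, pseudogenes, subgroups and libraries.

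Genes named were, for each chain, the 10 with the highest mean share, the first and last by position, members past the adjusted p of 0.05, Trav1, Trav11 and Trav11d, with the 3 highest genes of each other list, Traj18 and Traj33; others are given as examples of a count or to describe a list. The members and lists were chosen with earlier results of these data known.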

Additional observations from a re-analysis of the deposited data

Results flagged for a closer look

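In each of 5 of the 37 values checked over the 4 libraries, 1 library lay apart from the other 3 by more than Dixon's 95% critical value for the gap over the whole range; chance alone does this in about 1 of 20 groups. The share of Trbv13-3 was 3.52% in replicate 1 against a mean of 6.03% in the others. Trbv2 was at 10.2% in replicate 2 against 8.58%, and Trbv19 at 7.90% in replicate 3 against 6.90%. Trav14-2 was at 4.08% in replicate 2 against 5.29%. Trbc2 gave 58.5% of the Trbc fragments in replicate 4, the deepest library, against 55.5%.

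V pseudogenes, which are outside the members, also held fragments. Of 20 Trav pseudogenes 8 had a fragment, and of 13 Trbv pseudogenes 3. Their totals were 20, 31, 38 and 113 Trav fragments in replicates 1 to 4, which is 0.700% to 1.85% of the chain when they are added to it. In the library where each was highest, Trav8-2 had 47 fragments, Trav11n 25, Trav20 19 and Trav9n-1 18, all in replicate 4, and Trav13-3 had 10 and Trbv24 7, both in replicate 2. Each is above the 3 that a count of 0 allows.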

How the results depend on the processing

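Summing members into subgroups moved the effective number to 11.6 (Trav) and 12.0 (Trbv), the share of the 5 most used to 61.6% and 62.5%, and the upstream share to 44.8% and 66.5%. Leaving out members with under 10 fragments in any library gave 34.3 effective Trav genes, 30.5% for the 5 most used and 36.7% upstream. Leaving out Trav genes under 50% unique, an alternative chosen after seeing the data, gave 37.0 effective genes and 37.7% upstream. Leaving out Trbv4 and Trbv5, also chosen afterwards, gave 14.1 effective genes and 64.9% upstream. The cause was not tested beyond the smaller number of units that each alternative leaves. The other settings, 49 in all, kept these summaries within 1 SD, with 0 variable V genes in each fit.

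Without each library in turn, the effective number was 41.1 to 42.7 (Trav) and 15.4 to 15.8 (Trbv), the share of the 5 most used 27.6% to 28.9% and 47.2% to 50.3%, the upstream share 20.2% to 22.3% and 60.6% to 62.9%, and the count of variable V genes 0 to 0. No paired analysis was possible because there is 1 group. With 2836 to 7716 V fragments per chain and library, shares under 0.0389% to 0.106% were not measurable.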
